A study of Mus musculus with 12 samples.

Results

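The chromatin of 10 genes that carry fat across the intestinal epithelium was described, Cd36, Fabp1, Fabp2, Dgat1, Dgat2, Mttp, Apob, Apoa1, Apoa4 and Apoc3, out of 21829 protein-coding genes of the GENCODE M21 annotation of mouse GRCm38. The genes were listed by name, and for each one the peaks of 8 lists were taken over the gene body with 5 kb on either side. The study asked what becomes of histone H3 tails, which are cleaved in the villi of the mouse small intestine. ChIP-seq was done on crypts, the proliferating base of the epithelium released from the tissue with EDTA, and on villi, the differentiated part scraped off with coverslips, with antibodies to H3K4me3, H3K4me1, H3K27me3 and H3K9me3 among others. Each compartment and modification had 1 library, the labels give no strain, age or number of mice and do not say whether mice were pooled, and chromatin of both compartments was mixed with 5% of Drosophila chromatin. The deposited lists give the position of each peak and a score of 10 or more, read here as a −log10 p-value. They hold no read counts, so the depth is unknown, and no test between crypts and villi is possible.

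Dietary fat is broken down in the lumen, taken up by enterocytes, rebuilt into triglyceride in the endoplasmic reticulum and packed with apolipoproteins into chylomicrons, which leave through the lymph. Of the modifications followed here, H3K4me3 lies at the promoters of active and poised genes and H3K4me1 beside promoters and at enhancers, while H3K27me3 marks chromatin held by Polycomb proteins and H3K9me3 marks heterochromatin. Expression of the genes was not measured in these libraries, and a peak says where a modification was called, not how much the gene is transcribed.

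Chromatin of the lipid genes carried H3K4me3 in crypts as well as in villi. An H3K4me3 peak lay over the gene windows of 10 of 10 genes in crypts, where 63.2% of all coding genes had one, and of 10 of 10 in villi, where 63.5% had one. At a coding start site, taken with 1 kb on either side, 9 of the 10 genes had an H3K4me3 peak in crypts (57.7% of all coding genes), the same 9 in villi (57.9%) and thus 9 in both (56.6%). The gene without one was Cd36. The equal numbers rest on peaks in the lower part of the crypts list, since with the top 50% of each list by score 5 genes kept a start peak in crypts and 7 in villi, and 6 windows had a peak in crypts and 8 in villi. The shares of all genes at that limit were not counted, so these numbers have no background. H3K4me1 lay over 10 windows in crypts (69.1% of all genes) and 9 in villi (68.8%), the exception being Fabp1. At a start site it was found for 8 genes in crypts (57.9%) and 8 in villi (56.1%), 7 of them in both (52.2%), with Fabp1 in crypts only (5.69%) and Dgat1 in villi only (3.95%). H3K27me3 reached the window of 1 gene, Dgat1, in crypts (17.9% of all genes) and in villi (23.0%), and lay at no start site of the 10 genes (13.1% and 16.1%). No H3K9me3 peak lay over any of the 10 windows (3.89% and 3.12%), nor did any of the 6 crypts and 3 villi regions listed for H3K9me2. For a set of 10 genes, these counts of repressive peaks are close to what the shares over all genes would give. The members' windows had a median of 17.6 kb and those of all genes 27.4 kb, but the windows of Cd36, Mttp, Apob and Dgat2 were longer than that, from 39.1 to 117 kb.

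The windows of Apoa1, Apoc3 and Apoa4 overlap, and the 10 genes make 8 separate stretches of 345 kb in all. They held 14 H3K4me3 peaks in crypts, over 39.0 kb, and 14 in villi, over 46.5 kb. A counterpart in the other compartment was found for 14 of 14 H3K4me3 peaks of crypts and for 13 of 14 of villi, while over the whole lists 93.3% and 90.6% had one. For H3K4me1 there were 26 peaks over 76.6 kb in crypts and 25 over 84.6 kb in villi, of which 19 and 18 had a counterpart (81.7% and 82.1% over the lists). At a reciprocal overlap of 50%, 8 H3K4me1 peaks of each compartment had one, and the share over the whole lists was not counted at that limit. The H3K4me3 peaks of the lipid genes had a median width of 3046.5 bp in crypts against 1584 bp in that list, and 3622.5 bp in villi against 1498 bp. The lists also hold peaks away from start sites. Start peaks alone, over all genes, had a higher median width, 1949 bp (crypts) or 1850 bp (villi). Among these, the Mttp peak stood at percentile 70.4 (crypts) and 63.4 (villi), and that of Apoa4 at 69.9 and 79.2. Start peaks of the remaining lipid genes were at percentile 82.8 or above in crypts and 90.2 or above in villi. More bases of the window were under H3K4me3 in villi at 9 of the 10 genes (41.9% of all genes), Cd36 being the exception. Of the H3K4me3 peaks that pair 1 to 1 between the lists, 10 of 12 at the lipid genes were wider in villi (42.8% of all pairs), as were 7 of 8 H3K4me1 pairs (49.2%).

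**Figure D1:**
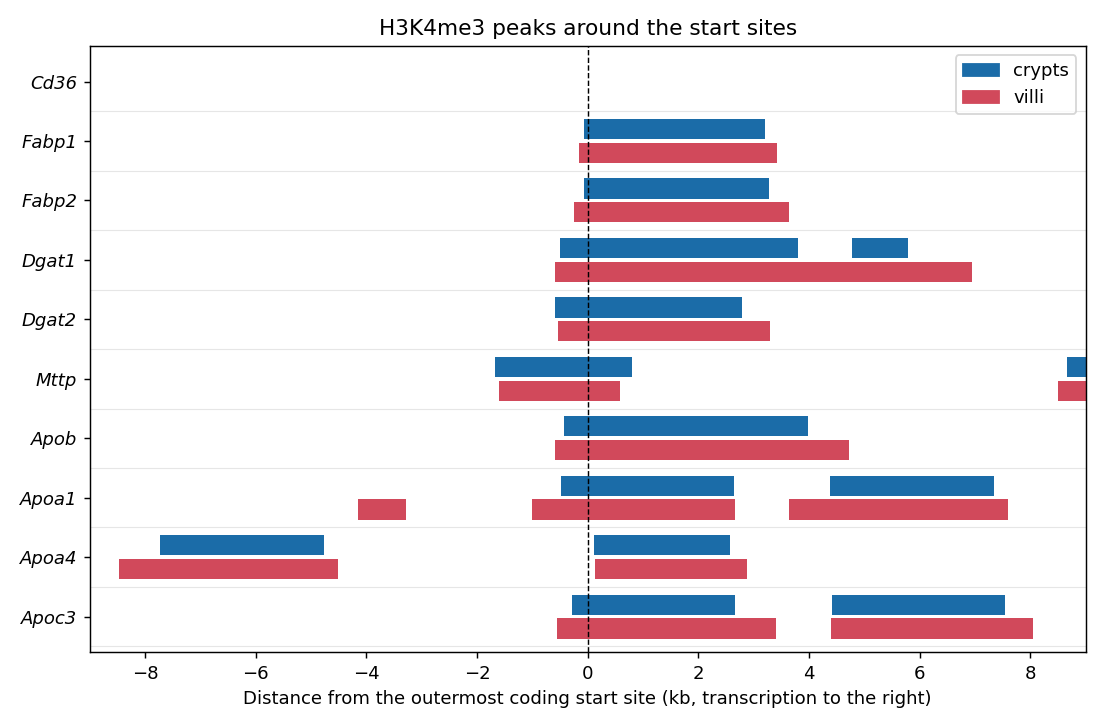
H3K4me3 peaks in crypts (blue) and villi (red) within 9 kb of the outermost coding start site of each gene, with distance in kb and transcription to the right. Only peaks that touch the window of the gene are drawn, bars are whole peaks as called in 1 library each, and the start peaks of 8 genes run mainly to the right of the start, that of Mttp runs mainly to the left, and Cd36 has none.

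The uptake and binding proteins come first on the path. Cd36 is a membrane receptor for long-chain fatty acids, and Fabp1 and Fabp2 are the liver-type and intestinal-type proteins that bind fatty acids in the enterocyte cytosol. Cd36 (chr5:17781690-17888801, minus strand) has 6 coding start sites, and none of them lay within 1 kb of an H3K4me3 or H3K4me1 peak in either compartment. Its single H3K4me3 peak was inside the gene, 969 bp wide in crypts against 950 bp in villi, and 818 bp of it were common to both. The peak began 59765 bp after the outermost start in crypts and 59633 bp after it in villi, and lay over a coding exon. It stood in the lower part of each list by score, among the top 82.4% in crypts and the top 72.5% in villi. In crypts a 3651 bp H3K4me1 peak surrounded it, in villi a 913 bp one overlapped it in part and one of 2660 bp lay upstream, and the bases covered over the whole Cd36 window gave a log2 ratio, villi over crypts, of −0.29. No numbered call had been removed from the lists over the start sites of Cd36, since the H3K4me3 and H3K4me1 peaks on either side carry consecutive numbers.

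RefSeq adds predicted Cd36 transcripts that begin near the internal peak. This set of starts was looked up after the peak had been seen. Of 9 RefSeq start sites of Cd36, 2, both predicted, lay within 1 kb of the H3K4me3 peak, at 256 and 249 bp in crypts and 124 and 117 bp in villi. The 250 bases before the outer predicted start (GRCm38, chr5:17829293-17829542, minus strand) are shown because they are the only stretch of Cd36 where an annotated start has these modifications within 1 kb. They lie outside the internal H3K4me3 peak in both compartments, and inside an H3K4me1 peak in each. Capitals mark TTTATG, followed by TATAAA, and the latter begins 33 bases before that start.
Cd36 internal peak: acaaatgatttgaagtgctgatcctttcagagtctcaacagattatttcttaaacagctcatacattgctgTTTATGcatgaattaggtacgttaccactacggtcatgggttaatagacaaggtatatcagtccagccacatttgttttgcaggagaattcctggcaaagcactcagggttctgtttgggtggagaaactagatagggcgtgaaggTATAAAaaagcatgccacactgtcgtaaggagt

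**Figure D2:**
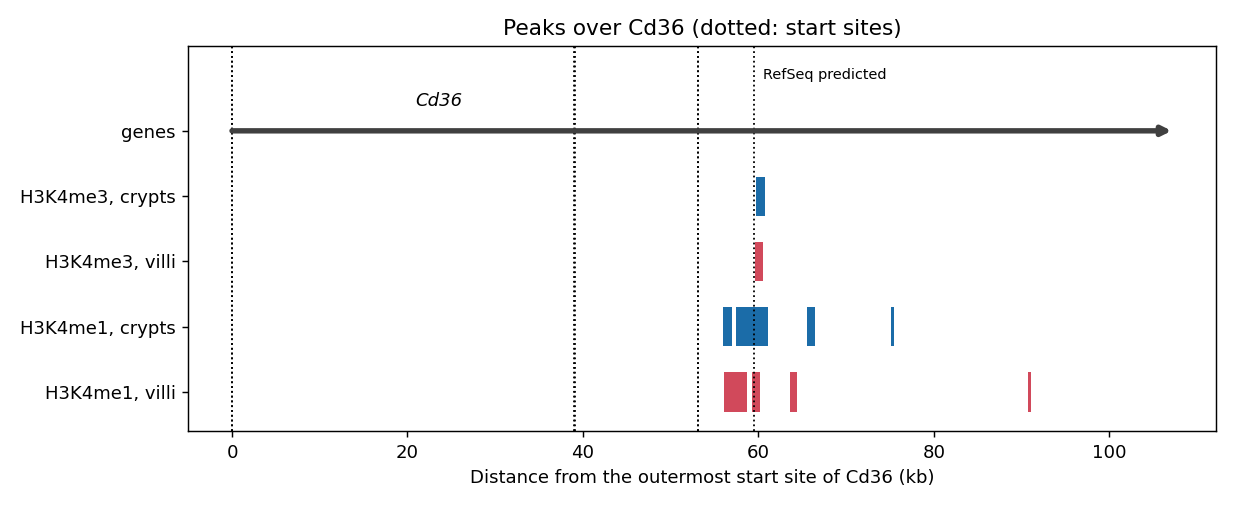
Peaks over Cd36 by distance in kb from its outermost start site, with transcription to the right (blue crypts, red villi, bars are whole peaks). Dotted lines are the GENCODE coding start sites and the outer RefSeq predicted start, and the H3K4me3 peaks of both compartments lie beside the predicted one, about 60 kb into the gene.

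Fabp1 (chr6:71199827-71205023, plus strand) and Fabp2 (chr3:122895072-122899506, plus strand) are short genes of 5197 and 4435 bp, and H3K4me3 covered most of each. The Fabp1 peak measured 3264 bp in crypts, against 3582 bp in villi, and began only 63 and 152 bp before the start. The Fabp2 peak measured 3334 bp in crypts, against 3886 bp in villi, and began 61 and 240 bp before the start. Among all genes with an H3K4me3 peak at the outermost start, the median extent before the start was 599 bp in crypts and 580 bp in villi. Both genes therefore had H3K4me3 that ran from the start into the gene with little of it upstream. H3K4me1 differed between the compartments. Over Fabp1 it was a 1948 bp peak across the start in crypts, and the villi list had none in the window. In villi 3 numbered calls are left out of the list between the flanking peaks, so a call there that was removed before deposit cannot be told from no call. Over Fabp2, crypts H3K4me1 covered the start with an 865 bp peak, and the nearest villi peak ended 580 bp before it, although 1 numbered call is left out of the villi list around the start. H3K4me1 covered 3106 bases of the Fabp2 window in crypts and 1970 in villi, a log2 ratio of −0.66.

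The bases in front of these genes are shown because the H3K4me3 peaks begin within them (GRCm38, RefSeq table, trimmed to the bases before both the GENCODE and the RefSeq start). For Fabp1 they are chr6:71199629-71199826, with TTTATG in capitals at 2 places, on the reverse strand, where it is written CATAAA. The Fabp1 window also held TATAAA, which begins 30 bases before the RefSeq start, but after the GENCODE start, and so is not in the bases printed. For Fabp2 they are chr3:122894822-122895071, with CAAAGT on the reverse strand, written ACTTTG, in capitals.
Fabp1: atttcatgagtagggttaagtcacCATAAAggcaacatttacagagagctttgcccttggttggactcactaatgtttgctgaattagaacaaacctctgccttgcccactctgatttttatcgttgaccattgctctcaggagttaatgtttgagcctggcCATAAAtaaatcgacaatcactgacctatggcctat
Fabp2: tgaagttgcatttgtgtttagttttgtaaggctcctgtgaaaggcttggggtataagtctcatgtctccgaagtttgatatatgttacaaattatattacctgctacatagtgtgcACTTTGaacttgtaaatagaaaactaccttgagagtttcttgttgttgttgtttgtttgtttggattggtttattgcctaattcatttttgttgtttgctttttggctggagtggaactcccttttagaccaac

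Dgat1 and Dgat2 code for enzymes that each add the last fatty acid to make triglyceride. Dgat1 (chr15:76502015-76511953, minus strand) had the highest-ranked H3K4me3 start peak of the 10 genes, within the top 0.273% of the crypts list and the top 0.153% of the villi list by score. It was 4307 bp wide in crypts, and a further crypts peak of 1020 bp lay inside the gene. In villi a single peak of 7541 bp spanned both. H3K4me1 covered 8013 bp of the Dgat1 window in crypts and 12856 bp in villi, a log2 ratio of 0.68. In villi a 608 bp H3K4me1 peak stood 187 bp before the start, where the crypts list had none within 1 kb, although 1 numbered call is left out of the crypts list there. The villi-only call at Dgat1 hangs on the limit of 1 kb and on the start set, since a crypts H3K4me1 peak began 1413 bp after the start, within 2 kb of it, and 2 predicted RefSeq starts of Dgat1, looked up after seeing the data, lay inside H3K4me1 peaks in both compartments. The only H3K27me3 near any of the 10 genes was upstream of Dgat1. It was a peak of 9178 bp in crypts, 4591 bp from the gene, and one of 7197 bp in villi, 2845 bp from it, and both lay over the neighbouring gene Scrt1. Of these, 410 bp (crypts) and 2156 bp (villi) fell into the Dgat1 window, and none reached the gene body.

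Dgat2 (chr7:99153658-99182719, minus strand) had an H3K4me3 peak at its outermost start that measured 3373 bp in crypts and, in villi, 3831 bp.  The gene stood out by its H3K4me1. In crypts 5 peaks covered 24053 bp of its window, the widest being 14163 bp. In villi 3 peaks covered 29111 bp, and one of them ran for 26612 bp, from 549 bp after the start to 27160 bp after it, through nearly the whole gene of 29062 bp. That peak overlapped 4 of the 5 crypts peaks and was among the top 0.00903% of the villi H3K4me1 list by width.

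Mttp loads lipid onto apolipoprotein B, the large structural protein coded by Apob around which each chylomicron is built. Mttp (chr3:138089854-138144968, minus strand) carried 4 H3K4me3 peaks in each compartment, and each had its counterpart in the other. Its outermost start had the one H3K4me3 start peak of the set that was narrower in villi, 2474 bp in crypts and 2183 bp in villi. That peak also lay the other way round, with 1665 bp before the start and 808 bp after it in crypts, and 1603 and 579 bp in villi. The start of Trmt10a, on the opposite strand, is 60 bp away, and signal of the 2 genes cannot be told apart there. At the second Mttp start, about 12 kb into the gene, the H3K4me3 peak was 5159 bp wide in crypts against 5269 bp in villi, and it ran 4800 and 4876 bp into the gene with 358 and 392 bp before that start. H3K4me1 covered 16540 bp of the Mttp window in crypts and 11984 bp in villi, a log2 ratio of −0.46, and crypts peaks of 2476 and 757 bp beneath the wide H3K4me3 peak had no counterpart in villi, where 1 numbered call is left out of the list.

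Apob (chr12:7977648-8016835, plus strand) had a single H3K4me3 peak, 4417 bp wide in crypts against 5320 bp in villi, at its first start. By score it was among the top 15.0% of the crypts list and the top 6.52% of the villi list. Among the 9 genes with H3K4me1 in both compartments, Apob had the highest ratio of covered bases. In crypts it was a single 688 bp peak that ended 46 bp before the start. In villi a 756 bp peak lay in the same place, and a further one of 5092 bp began 1612 bp after the start and ended 6703 bp after it, across coding exons, with no counterpart in crypts, although 3 numbered calls are left out of the crypts list between the flanking peaks. The bases covered in the Apob window were 688 in crypts and 5848 in villi, a log2 ratio of 3.09, and 0.0693% of the 14423 genes with H3K4me1 in both compartments had a ratio as high. The villi peak inside the gene ranked at the top 60.2% of its list by score, in its lower part. The bases before the start (GRCm38, chr12:7977427-7977647, plus strand) hold the end of the upstream H3K4me1 peak, and TATAAA, in capitals, begins 31 bases before the GENCODE start.
Apob: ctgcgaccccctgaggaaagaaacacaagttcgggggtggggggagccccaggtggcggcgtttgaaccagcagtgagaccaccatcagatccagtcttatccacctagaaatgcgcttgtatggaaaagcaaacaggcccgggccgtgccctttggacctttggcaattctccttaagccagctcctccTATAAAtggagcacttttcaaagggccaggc

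Apoa1, Apoc3 and Apoa4 lie together on chromosome 9. Apoa1 codes for the main protein of high-density lipoprotein, Apoa4 for a protein secreted on chylomicrons, and Apoc3 for an inhibitor of lipoprotein lipase. Apoa1 (chr9:46228580-46230466) and Apoa4 (chr9:46240696-46243459) are on the plus strand, and Apoc3 (chr9:46232933-46235636) lies between them on the minus strand. The Apoa1 start peak of H3K4me3 was 3130 bp wide in crypts against 3663 bp in villi, and it stood in the top 47.4% of the crypts list and, at the same score as the Apob peak, in the top 6.52% of the villi list. With peaks as deposited, most of its added width, 517 of 533 bp, lay before the start. With peaks under 1 kb apart merged, the Apoa1 peak joined that of Apoc3 in villi, and most of the added width lay downstream. The Apoc3 peak was 2963 bp wide in crypts against 3965 bp in villi, and the Apoa4 peak 2453 and 2759 bp. At Apoa4 the H3K4me3 peak began inside the gene, 118 bp after the GENCODE start in crypts and 126 bp after it in villi, while the RefSeq start, 148 bp downstream of the GENCODE one, was inside both peaks. The single H3K4me3 peak of the 10 genes without a counterpart was also here, a villi peak of 872 bp from 4150 to 3279 bp before Apoa1. It lay in the gap between Apoa1 and Sik3, over neither gene, with no call left out of the crypts numbering there, and ranked at the top 80.3% of its list by score.

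A wide H3K4me1 peak joined Apoc3 and Apoa4. In crypts it was 9218 bp long, and in villi 12291 bp, and it covered the start sites of both genes and the 5059 bp between them. Of all H3K4me1 peaks it was among the top 0.717% by width in crypts and the top 0.298% in villi. At Apoa1 the order was reversed, with a 3694 bp H3K4me1 peak across the start in crypts and a 1123 bp peak in villi that ended 28 bp before it. That log2 width ratio, −1.72, lay at the 0.632 percentile of the 38608 H3K4me1 peaks that pair 1 to 1 between the lists. Because of these opposite shifts, the H3K4me1 bases covered in the Apoa1 and Apoc3 windows were nearly equal in the compartments, with log2 ratios of −0.05 each, and the ratio of Apoa4 was 0.33.

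The bases before Apoa1 (GRCm38, chr9:46228380-46228579, plus strand) are those within which the villi H3K4me1 peak ends, where the crypts peak ran on across the start, and they hold none of the motifs searched. H3K4me3 covered them in both compartments. Those before Apoa4 (chr9:46240594-46240695, plus strand) lie inside the wide H3K4me1 peak and ahead of H3K4me3, with CAAAGT in capitals, 34 bases before the GENCODE start.
Apoa1: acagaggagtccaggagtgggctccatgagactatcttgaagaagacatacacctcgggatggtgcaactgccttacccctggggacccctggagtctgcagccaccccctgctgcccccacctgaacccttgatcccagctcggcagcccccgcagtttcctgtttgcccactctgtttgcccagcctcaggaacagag
Apoa4: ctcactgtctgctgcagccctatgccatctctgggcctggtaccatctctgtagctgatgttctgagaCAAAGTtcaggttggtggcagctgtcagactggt

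**Figure D3:**
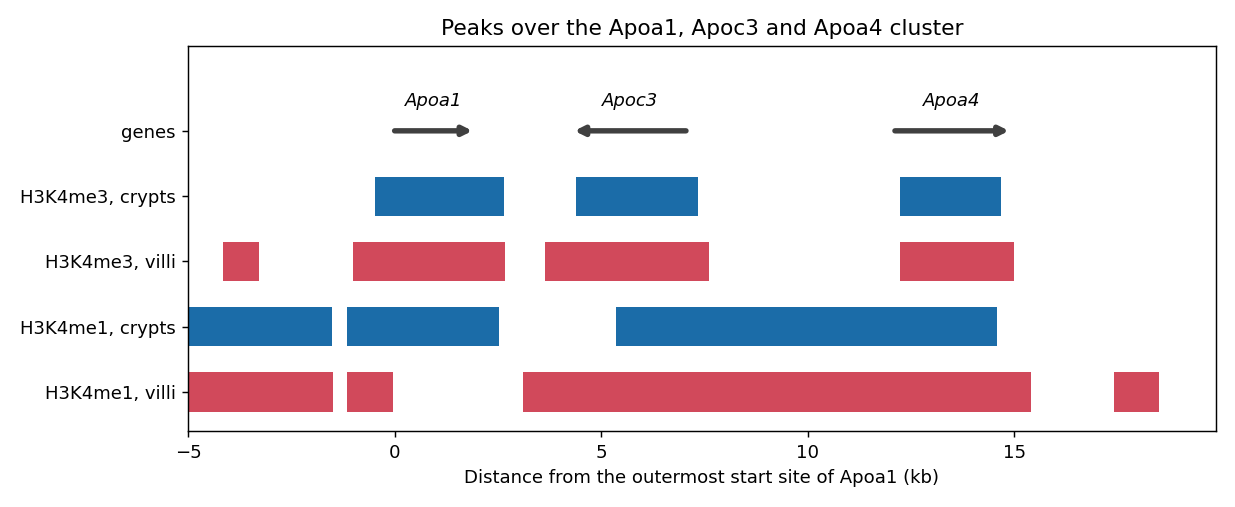
Peaks over the Apoa1, Apoc3 and Apoa4 cluster by distance in kb from the outermost Apoa1 start (blue crypts, red villi, arrows show the genes and their direction). Peaks that run past the left edge are cut there, and the villi row of H3K4me1 shows the 12291 bp peak over Apoc3 and Apoa4 and the short peak that stops before Apoa1.

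Motifs were searched on both strands in the 300-base windows of the RefSeq promoter table, using the 250 bases before the start. The stretch beside the internal Cd36 peak was searched for the same motifs. They were TATAAA (the TATA box, in 12.4% of 32851 windows), CAAAGTCCA (an element bound by HNF4, in 0.384%), its core CAAAGT (12.6%, contained in the former), AGATAA (bound by GATA factors, 9.99%) and TTTATG (bound by CDX2, 10.8%). Of the 10 genes, 7 had a window, and Apoc3, Dgat1 and Dgat2 had none. CAAAGTCCA and AGATAA were in none of the 7 windows. The Cd36 window, at a curated start with no peak within 1 kb, held CAAAGT and TTTATG. The nearest peaks to that start were of H3K4me1, 3095 bp away in crypts and 3190 bp in villi. The window of Mttp held none of the motifs. A match is a run of letters and not a measured site. By CpG content the windows of Apoa4 (observed over expected 0.0406), Apoa1 (0.158), Fabp1 (0.198), Cd36 at a curated start (0.216), Fabp2 (0.278) and Apob (0.374) were below the median of all windows, 0.384, from the 5.48 percentile at Apoa4 to the 39.2 percentile at Fabp2 and the 49.1 percentile at Apob. The Mttp window, shared with Trmt10a, was far above it, at 0.945.

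Across the set, H3K4me3 start peaks were called a little wider in villi. The authors reported that normalized H3K4me3 intensity at its peaks was strongly lower in villi. Widths and ranks within a list do not measure that level. Of the 9 genes with such a peak, 8 were wider in villi, where 40.0% of the 11777 genes with one in both lists were. The median log2 width ratio, villi over crypts, was 0.22 for the 9 genes and −0.04 for all. The ratio was 0.13 at Fabp1, 0.17 at Apoa4, 0.18 at Dgat2, 0.22 at Fabp2, 0.23 at Apoa1, 0.27 at Apob, 0.42 at Apoc3 and 0.81 at Dgat1, against −0.18 at Mttp. Of the 3608 genes whose crypts peak was at least 2453 bp wide, the narrowest among the members, 44.3% were wider in villi. With peaks as deposited, Dgat1 was the 1 gene with a 1.5-fold difference, as 2.86% of all genes had in that direction. With peaks under 1 kb apart merged, an alternative added after seeing the data, 8 of 9 genes were again wider in villi, but the sizes differed. The Dgat1 ratio became 0.26, since its crypts peaks joined into one of 6293 bp. The villi peaks of Apoa1 and Apoc3 joined into a single one of 8606 bp, and their ratios became 1.46 and 1.54.

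**Figure D4:**
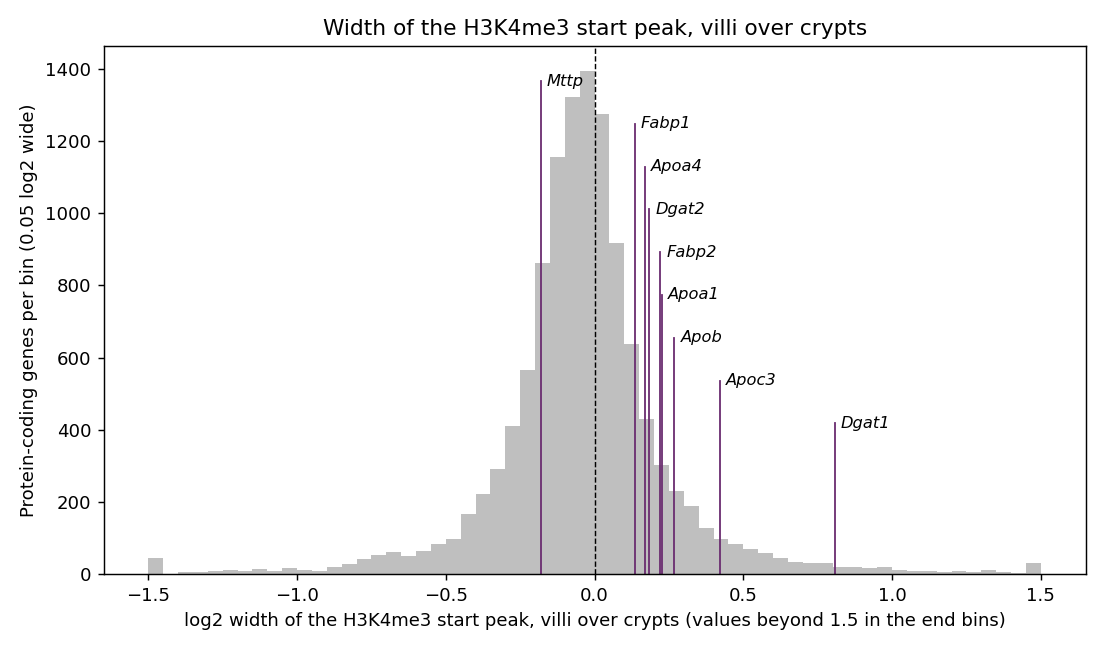
Log2 width ratio of the H3K4me3 start peak, villi over crypts, for 11777 protein-coding genes in bins of 0.05 (grey, values beyond 1.5 in the end bins), with 9 lipid genes as purple lines whose heights only separate the names. The bulk of genes lies just left of 0, 8 of the 9 lines lie to the right of it, and Mttp lies to the left.

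The added width was mostly downstream. Downstream of the start it was 229 bp at Fabp1, 373 bp at Fabp2, 314 bp at Apoa4 and 742 bp at Apoc3. It was 747 bp at Apob, 510 bp at Dgat2 and 3151 bp at Dgat1. Upstream of the start, at these genes, it ranged from −52 bp at Dgat2 to 260 bp at Apoc3. Apoa1 was the exception, with 16 bp downstream. These values hold for peaks as deposited. With peaks under 1 kb apart merged, the villi peak of Apoa1 ran on over Apoc3, and its added width was mostly downstream too. The crypts peaks of Dgat1 then joined into one of 6293 bp, which lowers its downstream gain. In either compartment most of these start peaks, as deposited, reached further downstream of the start than those of most genes. They ran past the end of the 1887 bp Apoa1 in both compartments. In villi they also ran past the ends of the 2704 bp Apoc3 and the 2764 bp Apoa4. The downstream extent of 8 of the 9 genes, all but Mttp, was above that of 90% of genes with a start peak, at 2570 bp or more in crypts and 2663 bp or more in villi, against medians of 1230 and 1170 bp. Ranks by score had the same direction. The start peak stood nearer the top of its list in villi for 8 of 9 genes, where 52.8% of all genes did, with a median change of −8.47 points of rank percent for the 9 genes and −0.57 for all, where a lower percent is nearer the top. Mttp stood in the top 34.1% in crypts and the top 46.1% in villi. The score is not scaled by the Drosophila chromatin, and so peaks were compared between compartments by rank within a list.

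By covered bases, H3K4me1 had no common direction. Of the peaks that pair 1 to 1, 7 of 8 were wider in villi, but peaks without such a partner are left out there. The paired peaks at Fabp2 shared only 138 bp. Covered bases in the window were higher in villi at 4 of the 9 genes with a peak in both lists (Apob, Dgat1, Apoa4 and Dgat2) and lower at 5, where 52.4% of all genes were higher. At least 1.5-fold more was covered in villi at Apob and Dgat1 (11.9% of all genes), and at least 1.5-fold less at Fabp2 (12.6%). In crypts the outermost start of 5 of the 9 genes with an H3K4me3 start peak lay inside an H3K4me1 peak (21.0% of such genes), and in villi that of 2 did (22.2%). The starts of Fabp1, Fabp2 and Apoa1 were inside in crypts only (4.84%), and no member's start was inside in villi only (6.00%). At Fabp1 and Fabp2, but not at Apoa1, calls are left out of the villi list around the start. The other 29 genes of the path with such a start peak had no lean to either side, with 9 inside in crypts and 9 in villi, 4 in crypts only and 4 in villi only. At Apob, Dgat1, Dgat2 and Mttp the start lay in a gap between H3K4me1 peaks or beside one in both compartments, and at Apoa4 and Apoc3 it was inside in both. This measure was chosen after the peaks had been seen.

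**Figure D5:**
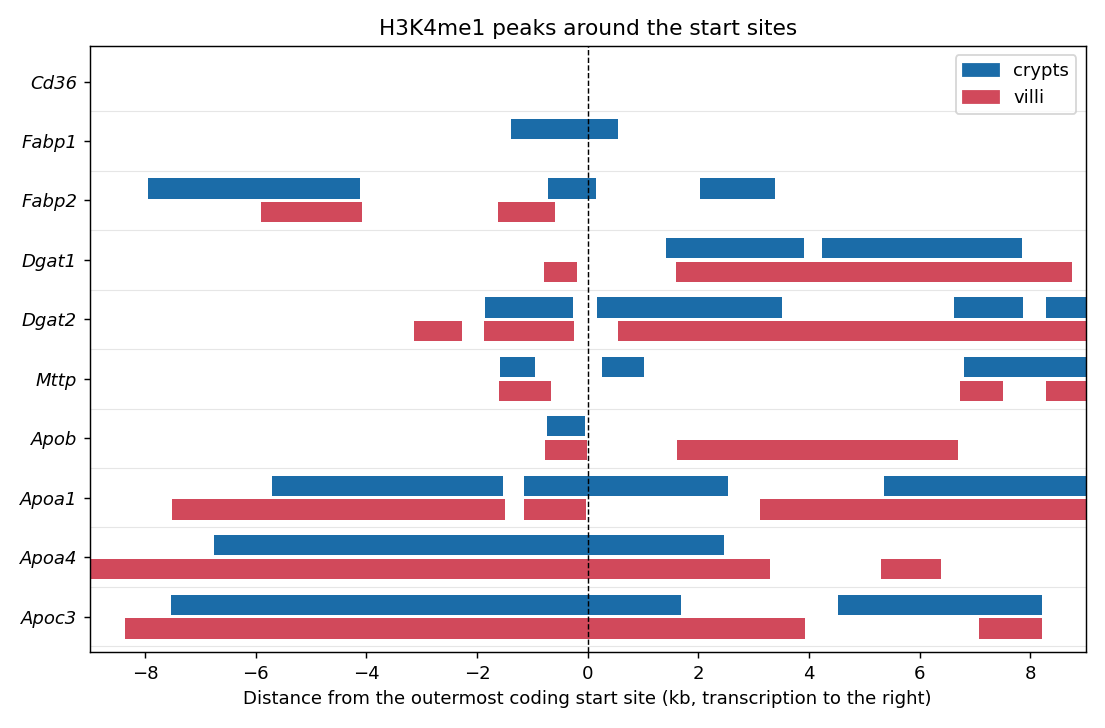
H3K4me1 peaks in crypts (blue) and villi (red) within 9 kb of the outermost coding start site of each gene, with distance in kb and transcription to the right, for peaks that touch the gene's window. The blue bars cross the start at Fabp1, Fabp2 and Apoa1 where no red bar does, and Apob has a red bar inside the gene with no blue one.

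Repressive peaks lay at distances on both sides of those of the median gene. Apart from Dgat1, the nearest H3K27me3 peak was 64.8 kb (Dgat2) to 592 kb (Cd36) away in crypts and 63.6 kb (Apoa4) to 469 kb (Cd36) in villi, where the median over all genes was 109 and 64.7 kb. The nearest H3K9me3 peak was 84.0 kb (Fabp1) away or further in crypts, and 49.7 kb (Apob) or further in villi, with medians over all genes of 436 and 498 kb. An H3K4me3 start peak in both compartments with no H3K27me3 in the window in either was found at 8 of the 10 genes, all but Cd36 and Dgat1, and at 44.8% of all genes.

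Another 34 genes of the same path, listed by role, were looked at in the same way. Of these, 31 had an H3K4me3 start peak in both compartments, and Apoa2, Apoa5 and Creb3l3 had none in either. Those without one were 2 apolipoproteins and the liver and gut transcription factor CREB3L3, and all 8 genes of fatty acid activation and resynthesis and all 6 of uptake and efflux had one. At the outermost start alone, 29 of the 34 genes had an H3K4me3 peak in both compartments. It was wider in villi at 21 of the 29, with a median log2 ratio of 0.21. By score the peak stood nearer the top in villi at 16 of the 29, or 55.2%, close to the 52.8% of all genes. H3K27me3 lay over 3 of the 34 windows in both compartments. It covered the start of Scarb1, a receptor for high-density lipoprotein, with 16 peaks over 51.0 kb of its window in crypts and 7 over 70.3 kb in villi, and stood over the neighbours Ltb4r2 and Hapln4 near Cideb and Tm6sf2. H3K9me3 touched the windows of Npc1l1, Scarb1, Hnf4g and Ppara in crypts and of Scarb1 in villi, away from the starts. H3K4me1 lay at the start in crypts only for 4 of the 34 genes (5.69% of all genes), among them Npc1l1, the cholesterol transporter, Slc27a4 and Apoa2, and in villi only for 1, Apoa5 (3.95%). The calls at Npc1l1 and Slc27a4 hang on the limit of 1 kb, since a villi peak ended at −1127 bp from the Npc1l1 start, and at Slc27a4 the peak began 924 bp after the start in crypts and 1114 bp after it in villi.

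The labels of the compartments were set beside marker genes. The 5 crypts markers (Lgr5, Olfm4, Ascl2, Axin2 and Smoc2) all had an H3K4me3 start peak in crypts, and 4 of them, all but Olfm4, had one in villi. The 5 villi enterocyte markers and the 3 epithelial ones had it in both. Of 3 immune markers none had an H3K4me3 start peak in crypts, and Ptprc and Cd3e had one in villi. Of 3 markers of mesenchyme and muscle 1 had one in crypts and 2 in villi, of 3 endothelial ones none and 1 (Kdr), and of 2 adipocyte ones none in either. Markers of cells other than epithelium thus had more H3K4me3 start peaks in the villi library, 5 against 1 of 11. Of these 5, Col1a1, Pdgfra and Kdr also had an H3K27me3 start peak in both compartments. Cd3e had one in villi, and Ptprc had none in either. The part of such cells in the results for the lipid genes was not tested. In such bulk chromatin, more cells with a modification and more of it per cell cannot be told apart.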

How the data were processed

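ChIP-seq libraries of crypts and villi were analysed from the deposited peak lists, 8 for H3K4me3, H3K4me1, H3K27me3 and H3K9me3, with the 2 H3K9me2 lists read only for overlap with the genes. For the input libraries no file was used here. The authors aligned reads to mm10 and dm6 with Bowtie 1.1.2, removed duplicates and called peaks with MACS2 2.1.1 at a p-value of 1e-10, and the deposited lists hold, for each peak, a value of 10 or more that was read as a −log10 p-value, although a q-value is possible. Peak numbers have gaps, so calls had been removed from the lists by a step that the methods do not state. Width and score depend on the depth of a library, which is unknown.

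Peaks were set against protein-coding genes of GENCODE M21 (GRCm38) with Python 3.11.15, NumPy 2.4.6 and pandas 2.3.3. Coordinates are 1-based. A gene window was the gene body with 5 kb on either side. A start peak lay within 1 kb of a coding start. Widths and ranks of start peaks were taken at the outermost start, and where several peaks lay there, from the one with most bases. Peaks of equal score share the best rank among them. The H3K4me3 lists had 7761 distinct scores for 16489 peaks in crypts and 6294 for 16977 in villi. Peaks were shared at 1 bp of overlap. Percentages over all genes are backgrounds counted by the same rule, and cover no replicate error. Promoter sequences came from the RefSeq table of GRCm38 and were equal to the genome at all 7 windows. The overlap code, tested on 2000 simulated windows, found the 995 planted with a peak and no other. The genes described are the 10 members, and of the 34 other genes those whose calls differed at the start or that carried a repressive peak, apart from 1 that is not reported here. Members, lists and markers were chosen with earlier results of these data known. Alternatives covered the window, the score, merging, the overlap and the start sites.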

Additional observations from a re-analysis of the deposited data

How the results depend on the processing

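With 1 library per group, no value has a replicate error, and depth limits which peaks were called. Of 201 values recomputed, 66 were 0 as reported and in each setting run, and say little on stability. Of the other 135, 112 stayed within 1.5-fold of the reported value and 23 did not, the cause of which was not tested beyond what each setting removes. With the top 50% of each list by score, H3K4me3 in crypts lay over 6 windows, with 6 peaks, 22860 bases and 5 genes with a start peak, and in villi the peaks fell to 8. H3K4me1 then had 14 peaks and 5 genes with a start peak in crypts and 12 peaks in villi, and with a score of 20 or more, a limit on the unscaled score, 14 peaks, 5 genes and 11 peaks. At a reciprocal overlap of 50%, 8 crypts and 8 villi H3K4me1 peaks were shared. Over gene bodies alone, villi H3K4me1 had 15 peaks, and H3K27me3 covered 0 genes with 0 peaks and 0 bases in both compartments. With 10 kb on either side it covered 5410 bases in crypts and 7156 in villi. With peaks under 1 kb apart merged, villi H3K4me1 had 16 peaks. RefSeq start sites, an alternative chosen after seeing the data, moved no count by more than 1.5-fold. No paired analysis was possible because each group has 1 library and no test was made.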
